A study of Mus musculus with 12 samples.

Results

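Among 9 mouse mammary tumours profiled by RNA sequencing, 2 stood apart by the level of Met, the gene of the receptor tyrosine kinase MET, and were compared here with the other 7. The Met-high tumours were chosen by the Met reads themselves: a tumour was called Met-high when Met exceeded 2000 counts per 1000000 gene counts (CPM). The rule took tumours 5 and 24 out of the 12 libraries of the series. All tumours carried the genotype Trp53R245W/+, a missense change in 1 copy of the gene of the tumour suppressor p53 that the series calls somatic. The 7 tumours below the cut-off were numbers 1, 4, 14, 17, 20, 21 and 27. The remaining 3 libraries were enriched epithelium from wild-type (WT) mammary glands, shown as a reference level and not tested. Their titles carry another prefix than those of the tumours. Of their alignments 39.9% to 41.5% lay outside genes, against at most 32.3% in any tumour. They also held a summed 469 to 526 CPM of T and NK cell markers, against at most 40.4 CPM in any tumour. Levels in epithelium are therefore a rough reference only. All mice were female C57BL/6J X BALB/cJ F1 hybrids. The labels used here state neither the ages, nor the cells in which the p53 change was made, nor that the tumours arose in separate mice, so the p-values measure only the spread between these samples. Tumour pieces also hold stroma and blood cells, and in such bulk samples fewer cells of a type and less RNA per cell cannot be told apart.

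MET is the receptor for hepatocyte growth factor (HGF), which stromal cells secrete as an inactive precursor and surface proteases cut into its active form. The bound receptor recruits adaptors such as GRB2 and GAB1 and passes signals to the ERK kinases, to PI3 kinase and to STAT3, which act on division, survival, scattering and invasion. ERK activity is commonly read from RNA through its feedback genes, among them the DUSP phosphatases, the Sprouty genes and the ETV factors. MET can also signal without ligand when the receptor is very abundant. Only RNA was measured, so receptor activity was not tested.

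Met, on chromosome 6 (17463800 to 17573980, GRCm38, plus strand), was at 14298.6 CPM in tumour 5 and 4882.3 CPM in tumour 24. The other tumours ran from 58.0 CPM in tumour 20 through a median of 132.3 CPM to 690.7 CPM in tumour 14, the highest below the cut-off. The lowest member thus lay 7.07-fold above the nearest tumour outside the class. The 3 epithelium libraries held 87.0, 103.1 and 105.9 CPM. Reads of Met made up 1.43% of all gene counts in tumour 5 and 0.488% in tumour 24. These levels defined the classes and are given as a description, without a test.

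**Figure D1:**
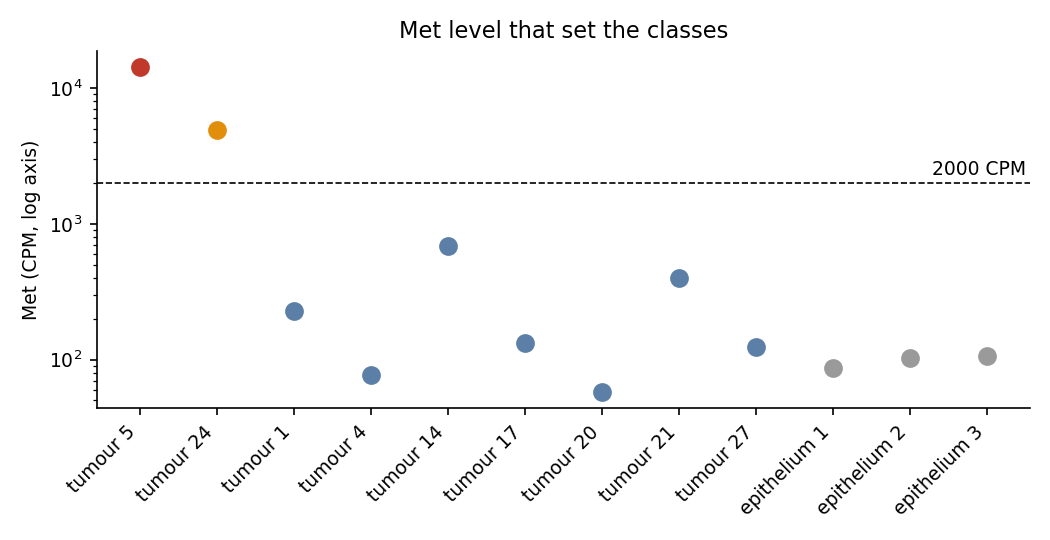
Met in each library, in counts per 1000000 gene counts on a log axis, with the cut-off of 2000 CPM dashed. Tumours 5 (red) and 24 (orange) lie at 14298.6 and 4882.3 CPM, the other tumours (blue) at 58.0 to 690.7 CPM and epithelium (grey) at 87.0 to 105.9 CPM.

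The libraries of the classes overlapped in depth and in measures of RNA. Tumours 5 and 24 had 31042312 and 26044794 gene counts, and the others 19695318 to 33600076. Shares of alignments outside genes (23.4% and 24.2% against 8.08% to 32.3%) and of mitochondrial counts (2.14% and 2.42% against 1.30% to 11.2%) overlapped between the classes (exact permutation p = 0.806 and 0.778, two-sided over 36 splits, of which the smallest possible is 0.0278). Tumour 4, in the comparison class, differed from the rest, since 52.0% of its alignments were not unique and Rn7sk, which encodes a small nuclear RNA, took 22.6% of its counts. The counts of called genes were repeated without it.

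On chromosome 6 itself, 9 of 1226 genes tested apart from Met passed the threshold (0.734%), all of them higher in the Met-high tumours and all within 11.4 Mb of Met. Their log2 fold changes were 2.69 to 5.27, with edgeR adjusted p of 0.0186 to 0.0431. By 10 Mb interval, genes at 10 CPM or more had a median log2 fold change of 1.84, 2.72 and 2.03 over the first 30 Mb of the chromosome, 0.383 from 30 to 40 Mb and between -0.611 and -0.0751 beyond. The interval from 20 to 30 Mb separated the tumours, since its median lay 0.639 above the other tumours in tumour 5 and 2.42 above them in tumour 24 (log2 scale). The 9 calls were fragile: none was left without tumour 14, 17, 20 or 27, and 4 without tumour 21. These neighbours share the gene's region, so no further result rests on chromosome 6.

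Away from chromosome 6 no gene passed. edgeR's quasi-likelihood test called 0 of 20038 genes higher and 0 lower (0% in each direction) at an adjusted p under 0.05, and the smallest adjusted p was 0.0559. At an unadjusted p under 0.05 there were 317 higher (1.58%) and 431 lower (2.15%). limma-voom called 0 in each direction, whereas DESeq2 called 33 higher and 51 lower of 18898 genes that received an adjusted p (0.175% and 0.27%). In the fits that left out 1 tumour, edgeR called 3 genes higher without tumour 5, 1 without tumour 24 and 0 without any of the others, tumour 4 included. With 2 tumours against 7 the test saw only large changes. In simulated libraries of the same classes, 6% of genes changed 2-fold and 24% changed 4-fold were recovered. At 8-fold the share was 64% and at 16-fold 84%, and 4 of 93 calls were false. The simulation held 14688 genes with 50 changed at each size, whereas the real test covered 21265. Its filter took the 9 tumours as 1 group, and the changed genes were drawn from those with a mean of at least 1 CPM. The recovery may therefore be overstated for the data, above all for genes that are low or present in 1 class. Falls were not assessed separately. In the data Ogdhl (log2 fold change 4.38) and H19 (3.92) were not called, whereas 9 genes of chromosome 6 at 2.69 to 5.27 were. For genes at 10 CPM or more the 95% interval reached a median of 1.14 to either side of the log2 fold change, so differences of about 2-fold would rarely be called with this number of tumours. The values below are therefore levels per tumour with their intervals, and only the genes of chromosome 6 are called.

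A simpler count asked how often both Met-high tumours lay outside the range of the other 7. Both were above all others in 468 genes off chromosome 6 (2.34%) and below all others in 467 (2.33%). The 10 genes with the largest log2 fold change in each direction, among those that also reached a mean of 10 CPM in the higher class, are described next. None of the 20 passed edgeR's test.

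H19, an imprinted long non-coding RNA gene that is highly expressed in the embryo and mostly silent after birth (chromosome 7), had 468 CPM in tumour 5 and 96.8 CPM in tumour 24. The other tumours held 2.29 to 43.5 CPM with a median of 13.2 CPM, and epithelium 2.51 to 6.23 CPM, so that the classes did not overlap (log2 fold change 3.92 with SE 0.80, edgeR adjusted p = 0.256). DESeq2 did call H19 (3.94, adjusted p = 0.00575). Nespas, an antisense RNA gene of the imprinted Gnas locus on chromosome 2, had 7.98 and 21.1 CPM against 0.0719 to 2.70 CPM (log2 fold change 3.70, adjusted p = 0.886). Whether the counting used the strand is not given in the sources used here, so its reads cannot be told apart from those of the genes it overlaps.

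Other genes of this set were carried mainly by tumour 24. Pnma5, on the X chromosome, belongs to a family of paraneoplastic antigen genes and had 23.5 CPM in tumour 24, 0.445 CPM in tumour 5 and at most 0.0762 CPM in any other tumour. Its edgeR adjusted p was 0.0559, the smallest off chromosome 6, and it passed in some alternatives, among them DESeq2 and the fit of all 12 libraries. Only the Met-high tumours brought Pnma5 over the filter on low counts, and its level rests on tumour 24. Its p-values are therefore no separate support for a difference between the classes. Ogdhl, which encodes a relative of the oxoglutarate dehydrogenase subunit, had 26.6 CPM in tumour 24 and 3.05 CPM in tumour 5 against 0.216 to 1.29 CPM (log2 fold change 4.38 with SE 0.72, edgeR adjusted p = 0.0961). Rec114, a gene of meiotic recombination, had 9.76 CPM in tumour 5 and 24.5 CPM in tumour 24. Its highest value elsewhere was 9.75 CPM, so tumour 5 barely cleared the range.

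Plppr3, a phospholipid phosphatase-related gene, had 131 CPM in tumour 5 and 47.3 CPM in tumour 24 against 3.63 to 23.2 CPM, median 10.1 (log2 fold change 2.82 with SE 0.60, edgeR adjusted p = 0.309). Ncmap, a myelin-associated membrane protein gene, had 26.1 and 19.7 CPM against 1.15 to 11 CPM. B3galt5, a galactosyltransferase of glycan chains, had 39.5 and 26.1 CPM against 1.07 to 19.7 CPM. Hspa1a, which encodes the inducible chaperone HSP70, had 45.2 and 76.8 CPM against 2.50 to 29.3 CPM, while epithelium held 143 to 214 CPM. Its near-identical paralog Hspa1b can share its reads, so this value is uncertain.

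ERK signalling acts on genes in part through the factor AP-1. Among the promoters available for the 20 genes, only 1 held the AP-1 motif. It belongs to Mmp12, the macrophage elastase gene, which is therefore shown with its upstream sequence. The gene had 95.3 CPM in tumour 5 and 69.1 CPM in tumour 24 against 7.77 to 60.7 CPM, median 9.98, in the other tumours (log2 fold change 1.84 with SE 0.75, edgeR adjusted p = 0.947). The macrophage marker Cd68 was also above all others in both tumours (84.8 and 83.3 against 24 to 75.9 CPM). Of 12 macrophage markers tested, however, Cd68 alone had a positive log2 fold change and 11 were negative (median -0.543). The summed level of 13 macrophage markers lay within the range of the others (1728 and 951 against 637 to 3950 CPM). The part of macrophages in the Mmp12 level was not tested. The motif TGANTCA was sought on both strands in RefSeq promoters (GRCm38.p6, 250 bases before to 50 after a start site) and lies in 7.81% of the 32851 promoters. Promoters were available for 8 of the 10 genes furthest above (12 promoters) and 7 of the 10 furthest below (10 promoters). The AP-1 motif lay in 1 of those 8 genes and 0 of those 7, beside 8.97% of all genes with a promoter. An ETS motif, ACCGGAAG, present in 2.30% of all promoters, lay in none of these. The stretch shown is chr9:7347124-7347373 on the plus strand, the 250 bases before 1 of the start sites of Mmp12, with the motif in capitals beginning 44 bases before the start site.
Mmp12 upstream: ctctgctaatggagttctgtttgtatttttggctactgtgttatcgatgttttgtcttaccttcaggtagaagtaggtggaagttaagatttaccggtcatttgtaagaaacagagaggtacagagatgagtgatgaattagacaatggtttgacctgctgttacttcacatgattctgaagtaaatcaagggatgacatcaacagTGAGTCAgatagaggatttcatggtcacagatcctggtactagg

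Among the 10 genes furthest below, several were high in only 1 or 2 tumours of the comparison class. Trim29, a gene of stratified and basal epithelium, had 0.651 CPM in tumour 5 and 0.395 CPM in tumour 24. In the other tumours it ran from 1.06 to 284 CPM with a median of 7.65 CPM, and tumours 20 (157 CPM) and 27 (284 CPM) were far above the rest (log2 fold change -6.99 with SE 2.85, edgeR adjusted p = 0.947). Fgfr2, the receptor for fibroblast growth factors that supports the mammary epithelium, had 1.75 and 2.72 CPM against 2.92 to 454 CPM, median 8.85, again with tumours 20 (454 CPM) and 27 (241 CPM) highest. Epithelium held 260 to 288 CPM of Fgfr2, and the other 5 tumours of the comparison class, at 2.92 to 18.9 CPM, also lay far below it.

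Ly6d, a surface protein gene of basal epithelium and lymphoid cells, had 3.94 and 0.986 CPM against 9.06 to 318 CPM (log2 fold change -5.30 with SE 1.97). Robo2, an axon guidance receptor, had 0.137 and 0.434 CPM against 1.28 to 206 CPM, with tumour 27 alone at 206 CPM. Sema3e, a secreted guidance cue, had 0.582 and 0.592 CPM against 1.06 to 53.4 CPM. Cyp3a57, Tspan8, Crispld1, Il1rl1 and Col23a1 completed the 10, at no more than 1.06 CPM in either Met-high tumour and with log2 fold changes of -8.22 to -4.79. Near-identical genes of the Cyp3a family can share reads with Cyp3a57.

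**Figure D2:**
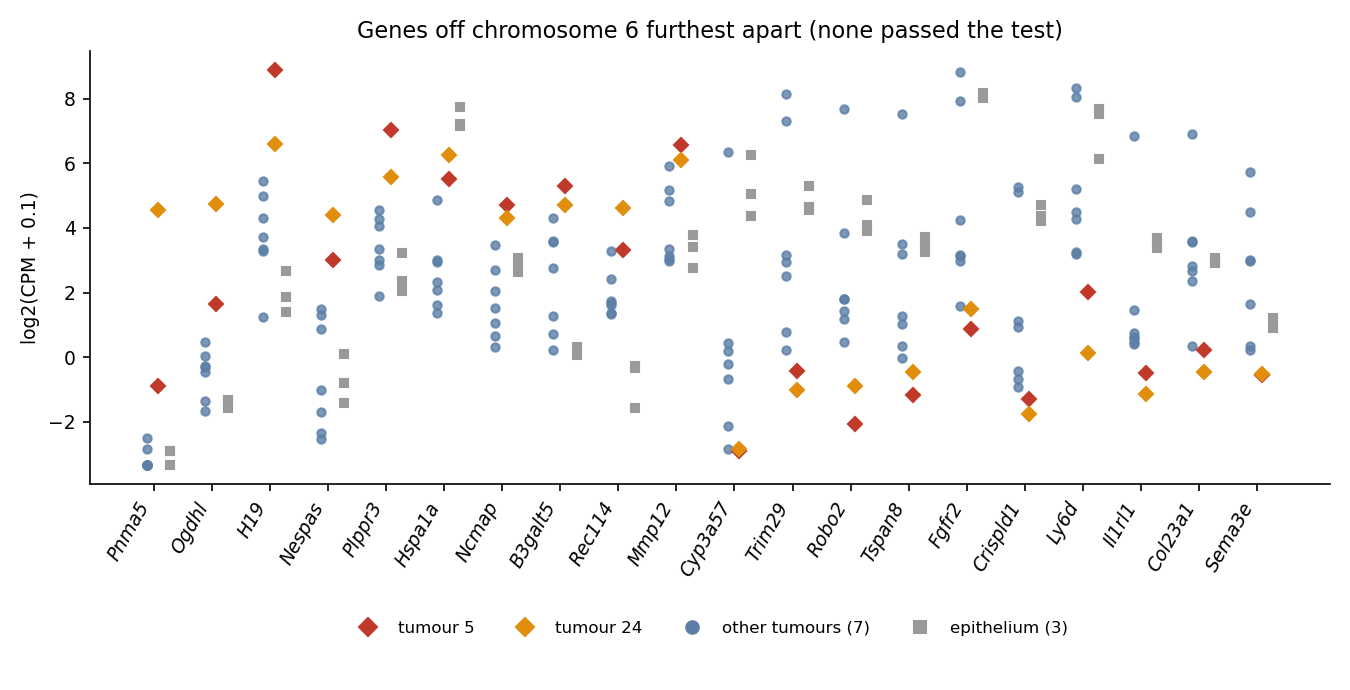
Levels of the 10 genes furthest above and the 10 furthest below in the Met-high tumours, as log2(CPM + 0.1) per library, for tumour 5 (red), tumour 24 (orange), the other tumours (blue) and epithelium (grey). H19 stands at 468 and 96.8 CPM against at most 43.5 CPM elsewhere, whereas Pnma5 is high in tumour 24 alone, and no gene passed edgeR's test.

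The luminal keratins of the Met-high tumours lay within the range of the others. Of the basal keratins, Krt5 was low in both tumours, while Krt14 differed between tumours 5 and 24. Krt8, the luminal keratin 8, had 1615 and 626 CPM against 212 to 1633 CPM, and its partner Krt18 had 1475 and 621 CPM against 195 to 1942 CPM. Epcam, an epithelial adhesion gene, had 923 and 542 CPM against 470 to 2135 CPM, so both tumours carried epithelial RNA. Krt5, the basal keratin 5, had 0.514 and 0.631 CPM against 0.164 in tumour 1 and up to 905 CPM in tumour 27 (log2 fold change -8.24, 95% interval -16.13 to -0.35, unadjusted p = 0.0421, adjusted p = 0.947).

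Trp63, the master regulator of basal epithelium, had 2.02 and 2.41 CPM against 2.03 to 327 CPM, median 26.1. DESeq2 called Krt5 and Trp63 lower (adjusted p = 0.00355 and 0.0328). Krt14, the partner of keratin 5, had 272 CPM in tumour 5, above all other tumours, and 1.10 CPM in tumour 24, below all of them. Of 13 myoepithelial and basal markers 12 had a negative log2 fold change and none was called, with a median of -2.24 against -0.13 over all genes tested off chromosome 6. That median moved to -1.48 without tumour 27 and -3.36 without tumour 5. The summed level of these markers was 1007 CPM in tumour 5 and 1572 CPM in tumour 24, inside the range of the others (677 to 6167 CPM, median 1714). Of 13 luminal markers 9 were positive (median 0.101, or -0.8 without tumour 5 and 0.651 without tumour 24), and the summed luminal level was 8072 and 3214 CPM against 1426 to 8071 CPM.

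The genes of the MET pathway overlapped between the classes. Of 24 ligands, co-receptors and adaptors none was called, and 11 had a positive log2 fold change (median -0.131, or -0.546 without tumour 5 and 0.00894 without tumour 24). None lay outside the range of the other tumours in both Met-high tumours. Over all genes off chromosome 6, 2.34% lay above and 2.33% below, so 0 of 24 is near these shares. Hgf, the ligand, had 6.85 CPM in tumour 5 and 4.62 CPM in tumour 24 against 3.5 to 51.8 CPM, median 10.8, and 22.6 to 30.4 CPM in epithelium (log2 fold change -1.58 with SE 0.98, 95% interval -3.75 to 0.59, adjusted p = 0.947). Both Met-high tumours thus lay below the median of the others for the ligand.

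Gab1, the docking adaptor of the receptor, had 54.0 and 56.9 CPM against 32.6 to 111 CPM. Mst1r, the related receptor RON, had 0.582 and 0.750 CPM against 0.493 to 6.97 CPM. The co-receptors parted the Met-high tumours from each other. Cd44, a hyaluronan receptor that can present HGF to MET, had 1347 CPM in tumour 5 and 56.7 CPM in tumour 24, which was below every other tumour (80.9 to 1952 CPM). Itgb4, the laminin-binding integrin subunit that amplifies MET signals, had 574 and 31.0 CPM against 23.6 to 774 CPM.

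Proteases that activate HGF, and their inhibitors, gave 12 genes tested, 9 with a positive log2 fold change (median 0.444, or 0.169 without tumour 5) and none called. St14, the membrane protease matriptase, had 383 and 298 CPM against 94.8 to 388 CPM, median 191 (log2 fold change 0.67 with SE 0.49). Its inhibitors Spint1 and Spint2 had 239 and 57.5 CPM (others 62.6 to 151) and 200 and 165 CPM (others 54.8 to 219). Plau, the urokinase gene, had 55.4 and 37.8 CPM against 23.0 to 1379 CPM, with tumour 1 far above all others. Plaur, its receptor, had 64.9 and 22.0 CPM against 6.25 to 76.9 CPM.

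Genes that damp receptor kinases were also mixed, with 9 of 20 positive (median -0.0309, or -0.388 without tumour 5 and 0.207 without tumour 24). Errfi1, an inhibitor of EGF receptor kinases, had 429 and 425 CPM against 71.0 to 497 CPM, and Cbl, the ubiquitin ligase that sends MET to degradation, had 82.2 and 77.0 CPM against 55.1 to 185 CPM. Dcn, the matrix proteoglycan decorin, which can bind and down-regulate MET, was below all others in both (30.1 and 18 against 34.1 to 642 CPM, with a log2 fold change of -3.24, SE 1.38 and edgeR adjusted p = 0.947). Decorin is also a marker of fibroblasts, whose summed level is given further on.

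ERK output genes overlapped throughout. Of 27 tested, 19 had a positive log2 fold change (median 0.382, or 0.106 without tumour 5) and none was called. None was at an unadjusted p under 0.05 in edgeR, beside 1.58% higher and 2.15% lower over all genes off chromosome 6. None had both Met-high tumours outside the range of the others, beside 2.34% above and 2.33% below. In a list of 27 genes, counts of 0 are near these shares. Dusp6, an ERK phosphatase and feedback gene, had 278 and 179 CPM against 108 to 505 CPM, median 222 (log2 fold change -0.10 with SE 0.59). Spry2 had 29.2 and 22.6 CPM against 14.4 to 40.4 CPM, and Spry4 22.4 and 54.9 CPM against 8.26 to 39.9 CPM. Tumour 24 alone was above the range for Spry4.

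The ETV factors gave 76.1 and 84.5 CPM of Etv4 (others 18.1 to 119 CPM, log2 fold change 0.76, SE 0.62) and 93.6 and 261 CPM of Etv5 (others 58.3 to 416 CPM). Dusp4, another ERK phosphatase gene, reached 217 CPM in tumour 5 and 91.6 CPM in tumour 24 against 23.7 to 210 CPM, median 37.4. Phlda1, a growth factor response gene, had 43.6 and 107 CPM against 23.3 to 134 CPM. Myc, the growth regulator, had 62.7 and 179 CPM against 35.3 to 220 CPM. Ccnd1, the gene of cyclin D1, had 1039 CPM in tumour 5 and 65.3 CPM in tumour 24, the lowest of the 9 tumours, so that its log2 fold change of -0.05 (SE 1.00) averages opposite levels. Fosl1, an AP-1 subunit that ERK stabilises, had 22.1 and 1.62 CPM against 0.180 to 45.1 CPM, with tumour 1 the highest.

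**Figure D3:**
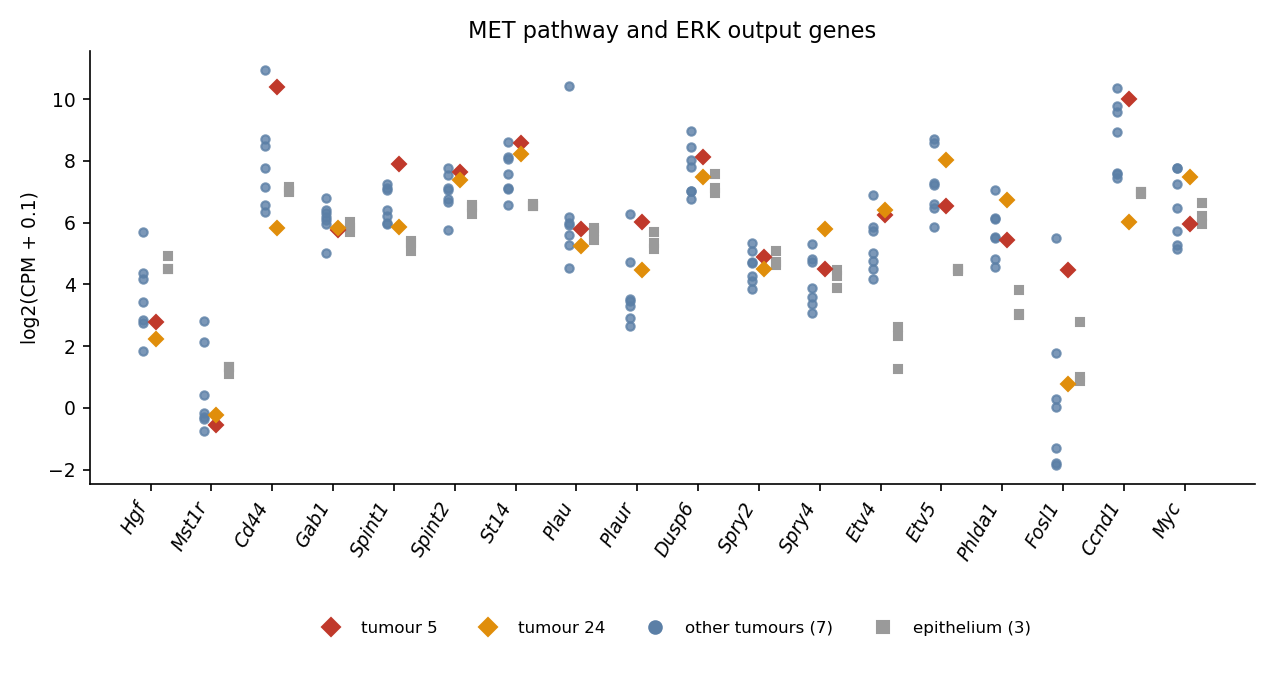
MET ligand, co-receptor, protease and ERK output genes, as log2(CPM + 0.1) per library, for tumour 5 (red), tumour 24 (orange), the other tumours (blue) and epithelium (grey). In no gene shown do both Met-high tumours lie outside the others on the same side, and they lie far from each other in Cd44 (1347 and 56.7 CPM) and Ccnd1 (1039 and 65.3 CPM).

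As a summed level, the other receptor tyrosine kinases were low in the Met-high tumours. Among the 41 lists no other sum lay outside the range of the others on the same side in both. The list was picked out after the sums were seen, so its place is a description. Of single genes off chromosome 6, 2.34% lay above and 2.33% below in both, so 1 of 41 sums is not unusual. The list also holds receptors that serve as markers of fibroblasts (Pdgfra, Pdgfrb), endothelial cells (Kdr, Tek, Tie1) and macrophages (Csf1r). The part of these cells in the sum was not tested. Of 33 members tested, 2 (Fgfr2 and Pdgfra) were below all others in both, beside 2.33% of all genes off chromosome 6. The summed level of 36 receptor genes was 1978 CPM in tumour 5 and 1733 CPM in tumour 24, below the lowest of the other tumours (2291 CPM, median 2902, highest 3442). Of 33 tested, 27 had a negative log2 fold change (median -0.72 against -0.13 over all genes off chromosome 6, and between -0.854 and -0.626 in the fits that left out 1 tumour), and none was called. Fgfr1, a receptor for fibroblast growth factors, had 106 and 202 CPM against 154 to 603 CPM, median 306 (log2 fold change -1.22 with SE 0.58, edgeR adjusted p = 0.947). Pdgfra, a receptor of fibroblasts, was below all others in both (24.9 and 17.7 against 32.2 to 239 CPM).

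Receptors of the EGF family overlapped. Egfr had 86.4 and 29.8 CPM against 53.3 to 236 CPM, Erbb2 had 76.9 and 47.9 CPM against 23.4 to 166 CPM, and Erbb3 had 91.9 and 125 CPM against 77.7 to 301 CPM. Kit, the stem cell factor receptor of luminal progenitors, had 68.9 and 129 CPM against 18 to 399 CPM with a median of 291 CPM. Of 23 growth factor ligands 18 were negative (median -0.87, or -1.57 without tumour 5), and Nrg1, the ERBB3 ligand neuregulin, was below all others (5.48 and 4.89 against 5.82 to 82.9 CPM, adjusted p = 0.947).

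Components of the PI3K-Akt-mTOR pathway were balanced: 18 of 34 had a positive log2 fold change, the median was 0.0027 (-0.176 without tumour 5) and none was called. Only Pik3cb, the catalytic subunit p110 beta, and Akt2, 1 of the Akt kinases, were above all others in both tumours, 2 of 34 beside 2.34% of all genes off chromosome 6. They lie on chromosomes 9 and 7, whose genes as a whole are described below. Pik3cb had 102 and 81.9 CPM against 31.4 to 71.9 CPM (log2 fold change 0.98 with SE 0.37, edgeR adjusted p = 0.947), and Akt2 had 149 and 156 CPM against 42.2 to 116 CPM.

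Cell division separated tumour 24, not the class. The summed level of 26 mitosis genes was 6153 CPM in tumour 24, above every other tumour, and 2063 CPM in tumour 5, near the median of the rest (1963 CPM, range 955 to 3832). Of these genes 25 had a positive log2 fold change (median 0.975) and none was called, and the median was 0.107 without tumour 24 and 1.52 without tumour 5. Mki67, the proliferation marker, had 420 CPM in tumour 5 and 1869 CPM in tumour 24 against 197 to 1081 CPM (log2 fold change 1.19 with SE 0.61, edgeR adjusted p = 0.947). The same held for 28 replication genes, of which 24 were positive (median 0.698, or 0.162 without tumour 24). E2f1, a factor of entry into S phase, and Lig1, a DNA ligase gene, were above all others in both tumours, 2 of 28 beside 2.34% of all genes off chromosome 6. They lie on chromosomes 2 and 7, also described below. E2f1 had 28.5 and 30.6 CPM against 5.10 to 19.8 CPM (log2 fold change 1.29 with SE 0.49, edgeR adjusted p = 0.947).

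Genes of the p53 pathway mostly overlapped. Trp53 had 43.6 and 51.7 CPM against 19.5 to 83.6 CPM, and Cdkn1a, the p53 target that encodes p21, 19.2 and 5.21 CPM against 4.50 to 56.7 CPM. Cdkn2a, the gene of p16Ink4a and p19Arf, had 65.5 and 44.8 CPM against 17.3 to 117 CPM. Of 21 p53 pathway genes 15 were negative (median -0.277, or -0.0512 without tumour 24), and Sesn1, a stress brake on mTOR, lay below all others with 12.6 and 11.1 CPM against 19.9 to 57.5 CPM (log2 fold change -1.52 with SE 0.50, edgeR adjusted p = 0.947).

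Several glycolytic enzyme genes were high in both tumours. Of 22 genes of glycolysis and hypoxia 20 had a positive log2 fold change (median 0.578, range 0.386 to 0.83 over the fits without 1 tumour), 4 had both Met-high tumours above all others (2.34% of all genes off chromosome 6 did, and 2.96% of those at 10 CPM or more), and none was called. Those 4 were the enzyme genes Gpi1 (646 and 834 against 185 to 552 CPM), Pgam1 (376 and 283 against 92.8 to 266 CPM), Eno1 (845 and 753 against 274 to 640 CPM) and Ldha (964 and 799 against 247 to 768 CPM). Pgam1 had a log2 fold change of 1.04 (SE 0.39, 95% interval 0.19 to 1.90, unadjusted p = 0.0214, adjusted p = 0.947). Gpi1 and Ldha lie on chromosome 7, whose genes as a whole are described below. Slc2a1, the glucose transporter, had 209 and 201 CPM against 37.9 to 223 CPM. The summed level of the list was 11186 and 8625 CPM against 3356 to 8822 CPM, so tumour 24 lay just inside the range.

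Genes of antigen presentation divided in part by class of molecule. The class II genes H2-Aa, H2-Ab1 and H2-Eb1, which B cells, macrophages and dendritic cells use to present peptides, were below all other tumours in both Met-high tumours, as was Ciita, their master regulator. These are 4 of the 16 genes of the list, beside 2.33% of all genes off chromosome 6. Cd74 and H2-DMa, also class II genes of the list, were not below all others in both. H2-Eb1 had 45.1 CPM in tumour 5 and 20.5 CPM in tumour 24 against 56.5 to 542 CPM, median 277 (log2 fold change -3.13 with SE 0.82, 95% interval -4.96 to -1.31, unadjusted p = 0.00329, adjusted p = 0.699). H2-Aa had 50.9 and 24.8 CPM against 58.2 to 971 CPM. H2-Ab1 had 83.1 and 35.1 CPM against 84.1 to 1306 CPM, so tumour 5 barely missed the range. In all 3 genes tumour 20 was the nearest of the others, and DESeq2 called all 3 lower (adjusted p = 0.00477 to 0.04).

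Class I genes placed the Met-high tumours apart from each other. B2m, the shared light chain of class I, had 3772 CPM in tumour 5, above all others, and 352 CPM in tumour 24, below all of them (375 to 3383 CPM). H2-K1 had 1322 and 135 CPM against 113 to 1670 CPM. Interferon-stimulated genes split in the same way, at a summed 2674 CPM in tumour 5 and 262 CPM in tumour 24 against 339 to 3717 CPM, and their median log2 fold change of 0.326 became -2.19 without tumour 5 and 1.20 without tumour 24.

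Markers of leukocytes differed by cell type. All 11 B and plasma cell genes tested had negative log2 fold changes (median -3.56, between -3.87 and -3.03 over the fits without 1 tumour, -2.25 with limma-voom and -0.244 with a Met cut-off of 500 CPM), and Cd79b and Blk were among those below all others. Their summed level was 14.1 and 12.3 CPM against 9.28 to 493 CPM with a median of 74.8 CPM. Ighm, the gene of the IgM heavy chain, had 6.37 and 8.60 CPM against 6.49 to 373 CPM (log2 fold change -4.23 with SE 1.60, edgeR adjusted p = 0.947). Dendritic cell markers had a median of -1.34 and summed levels of 61.0 and 24.6 CPM against 41.0 to 123 CPM, and T and NK cell markers a median of -1.86 (-2.82 without tumour 5, and -0.254 over genes with at least 10 counts in all 9 tumours) at summed levels of 7.40 and 5.76 CPM against 3.83 to 40.4 CPM. Neutrophil markers were positive in 8 of 10 genes (median 0.362, or -2.3 without tumour 5), with sums of 183 CPM in tumour 5 and 17.3 CPM in tumour 24 against 15.3 to 319 CPM, median 22.7. The macrophage sums, given above, lay on either side of the median of the others (1579 CPM). Epithelium held 1208 to 1564 CPM of the B cell list. The part of these cells in the class II levels was not tested.

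Stromal markers were low to intermediate. Of 14 fibroblast markers 13 were negative (median -1.69, or -0.875 without tumour 21), and their summed level was 1764 and 2272 CPM against 2175 to 30074 CPM, where tumour 21 supplied the top. Postn, the matricellular protein periostin, was below all others (255 and 345 against 389 to 2041 CPM). Mesenchymal genes had a median of -0.868 (-1.44 without tumour 5 and -0.452 without tumour 21) with 17 of 20 negative, and Vim, the mesenchymal filament gene, had 323 and 249 CPM against 200 to 1061 CPM in the other tumours. Cdh1, the epithelial cadherin gene, had 590 and 327 CPM against 137 to 779 CPM. No mesenchymal gene passed the test in either direction. Endothelial markers had a median of -0.258 (-0.858 without tumour 5 and 0.135 without tumour 24) and overlapping summed levels (510 and 263 against 209 to 683 CPM).

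**Figure D4:**
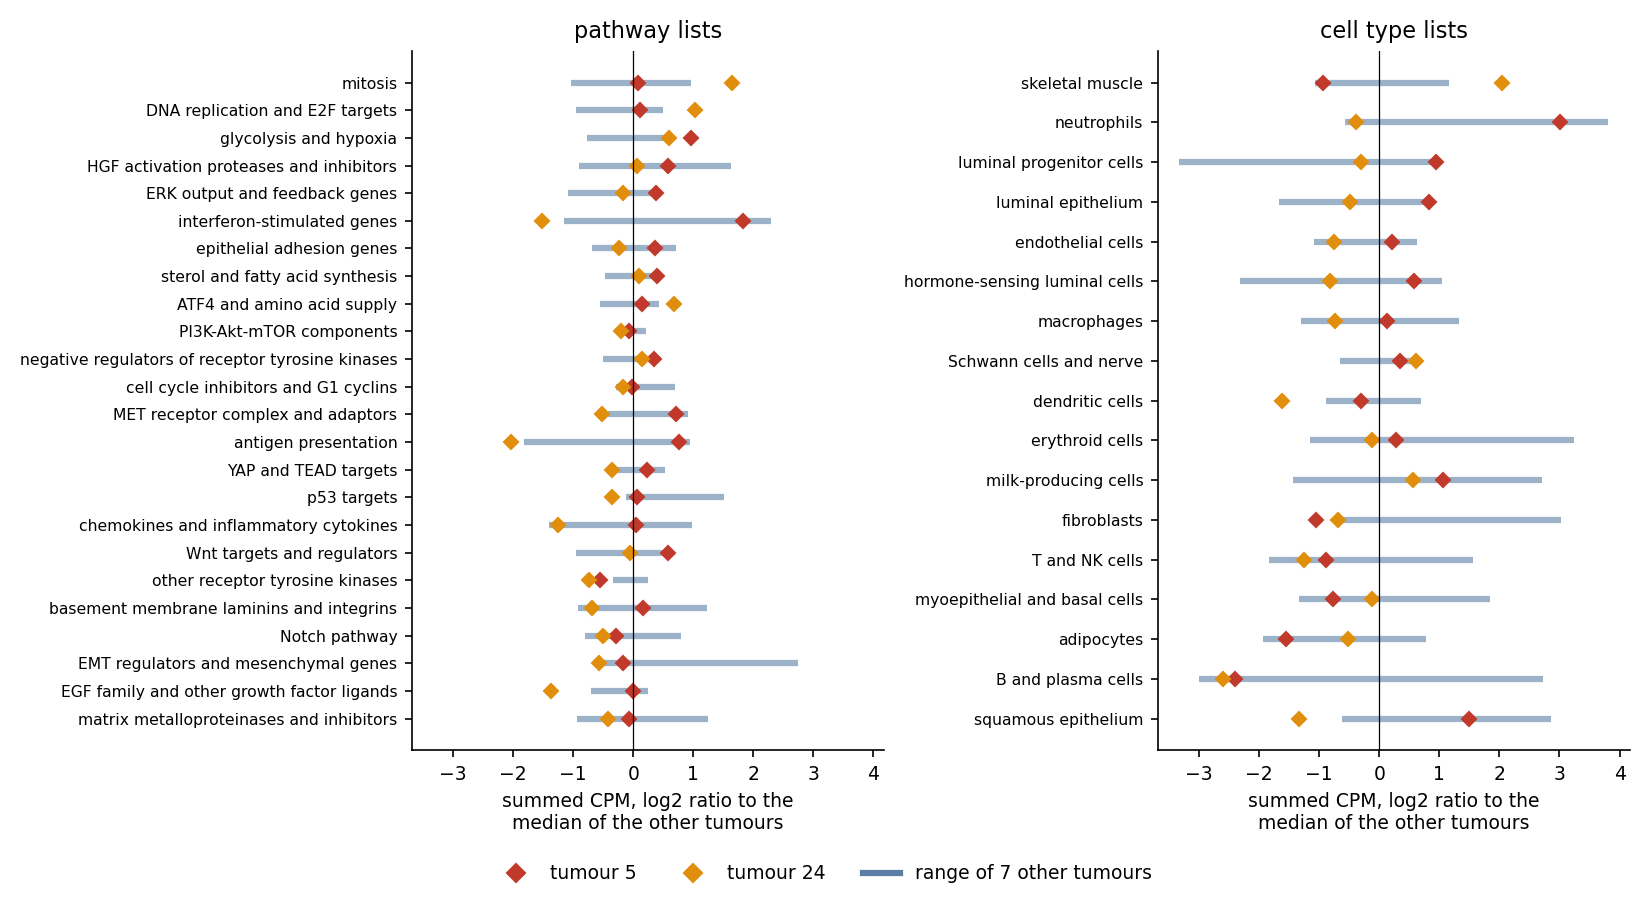
Summed CPM of each gene list in tumour 5 (red) and tumour 24 (orange), as the log2 ratio to the median of the other 7 tumours, whose range is the blue bar. The sum for other receptor tyrosine kinases (1978 and 1733 CPM) lies below the range in both tumours, mitosis is above it in tumour 24 (6153 CPM), and interferon-stimulated genes place the tumours far apart (2674 and 262 CPM).

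Over all 41 lists, 24 of pathways and 17 of cell types, edgeR called no member, and at an unadjusted p under 0.05 there were 61 of 713 members, each counted once, beside 1.58% higher and 2.15% lower over all genes off chromosome 6. DESeq2 called 10 members, all lower, beside 0.27% of all genes called lower. Genes named beyond the fixed list, the 10 in each direction and the most abundant member of each list were picked after their values were seen.

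Whole chromosomes differed slightly. For each tumour, genes at 10 CPM or more were set against their median over the 9 tumours, and the median of these log2 differences was taken per chromosome. On 4 of 20 chromosomes both Met-high tumours lay above all others: chromosome 7 (0.212 in tumour 5 and 0.286 in tumour 24 against -0.454 to 0.00408), chromosome 9 (0.151 and 0.206 against -0.445 to 0.0671), chromosome 2 (0.158 and 0.197 against -0.101 to 0.0111) and chromosome 1 (0.121 and 0.112 against -0.115 to 0.0228). On no chromosome did both lie below. Between the classes, the median log2 fold change furthest from 0 was nevertheless negative, at -0.483 on chromosome 14. There tumour 24 lay below all others (-0.325 against -0.0721 to 0.427) and tumour 5 did not (-0.0112). Chromosome 13 followed at -0.404, with both tumours inside the range. On chromosome 6 as a whole they did not stand apart (-0.0193 and 0 against -0.0858 to 0.215).

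By construction, chromosomes with raised medians also tend to hold more single genes above all others, so these shares are no separate result. Such genes made up 8.79% of 796 genes on chromosome 7, 8.72% of 642 on chromosome 9, 6.83% of 893 on chromosome 2 and 4.53% of 684 on chromosome 1, against 2.96% of 10601 genes off chromosome 6 at this level, and no gene on these chromosomes was called. Likewise, genes below all others made up 6.76% of 370 on chromosome 14, 3.69% of 731 on chromosome 5 and 3.41% of 440 on chromosome 13. Over 10196 genes off chromosome 6 that share was 1.48%. For these genes the GC content was known, and the level of the other tumours was their median, not their mean. The sets therefore differ slightly. Across 10196 genes the rank correlation of the log2 fold change with the GC content of the longest transcript was 0.0998, and across 19 chromosomes that of their median log2 fold change with their median GC content was 0.355. With genes in 5 equal bins of GC content, from the lowest bin to the highest, the share below all others went from 2.21% to 0.589%. The share above all others changed less, from 2.6% in the lowest bin through 3.68% in the middle bin to 3.29% in the highest. These are descriptions, since genes and chromosomes are not independent replicates, and the part of GC content in the chromosome medians was not tested. DNA was not measured, so whether copy number differs was not tested.

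**Figure D5:**
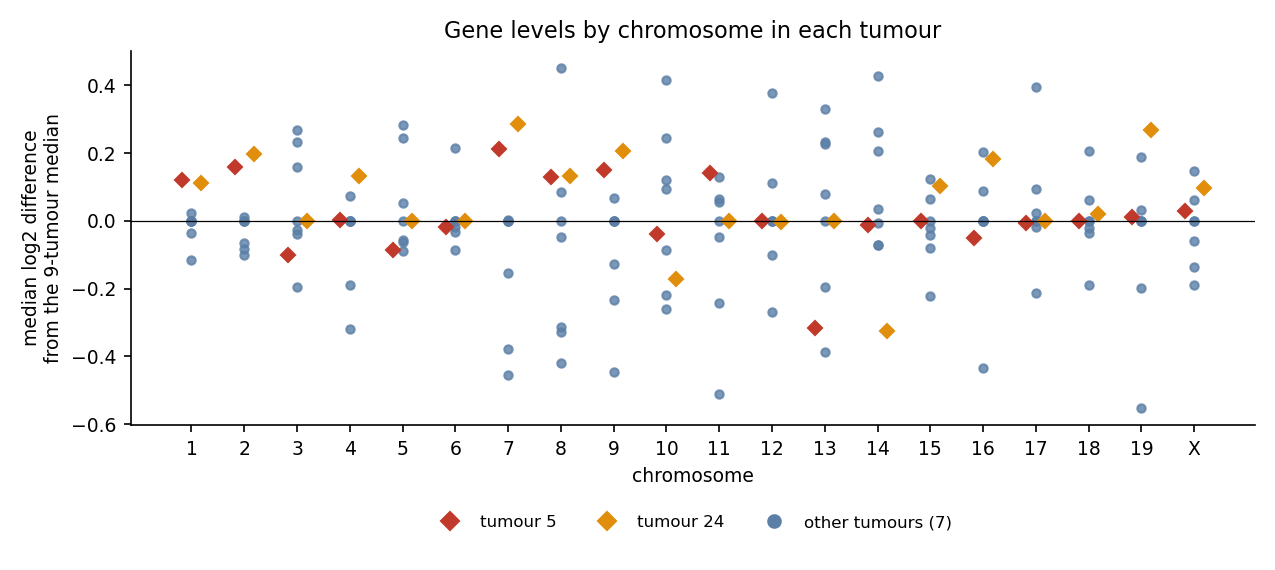
Median log2 difference of each tumour from the 9-tumour median, by chromosome, for tumour 5 (red), tumour 24 (orange) and the other tumours (blue). On chromosomes 1, 2, 7 and 9 both Met-high tumours are above all others, by 0.112 to 0.286 from the median.

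The Met-high tumours were about as alike as any pair of tumours. Over 10601 genes off chromosome 6 at 10 CPM or more, the rank correlation of tumours 5 and 24 was 0.781, which placed the pair 18th of 36, beside a median of 0.779 and a range of 0.570 to 0.850. Tumour 5 was most like tumour 21 (0.828) and tumour 24 most like tumour 17 (0.847). Between tumours 5 and 24, 698 genes (6.58%) differed at least 4-fold, against a median of 699.5 over all pairs. In 106 genes tumour 5 lay above and tumour 24 below all 7 others, and in 80 genes the reverse. These correlations describe libraries that share their genes and carry no p.

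The genes whose log2 CPM followed that of Met most closely over the 9 tumours were sought among 10236 genes off chromosome 6. They were Sirt2, a deacetylase gene (Pearson's r 0.935), Plppr3 (0.923), the metallothionein gene Mt1 (0.888), Ppm1m, a protein phosphatase gene (0.887), and Tbc1d20, a regulator of RAB GTPases (0.887). They were chosen for this likeness, so it is a description. Sirt2 had 60.5 and 50.9 CPM against 37.4 to 46.0 CPM, a narrow margin (log2 fold change 0.45 with SE 0.28, edgeR adjusted p = 0.947). Mt1 had 271 and 119 CPM against 38.4 to 126 CPM, so tumour 24 overlapped the others (log2 fold change 1.72 with SE 0.46, edgeR adjusted p = 0.707).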

How the data were processed

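RNA was sequenced from 9 tumours and 3 epithelium samples. Read counts per gene are the deposited values: per the submitters' processing notes the tools were FastQC 0.11.8, TopHat2 2.1.1 and HTSeq 0.11.0 on GRCm38, and per the labels' protocols the libraries were stranded. The sources used here give neither the annotation release nor the strand setting of the counting. The 5 rows for alignments outside genes were kept out of totals and tests. Of 54658 genes, 54106 matched GENCODE M21 for position.

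edgeR 4.0.16 (filterByExpr, TMM, robust quasi-likelihood test, Benjamini-Hochberg adjusted p under 0.05) compared 2 Met-high with 7 other tumours over 21265 genes, Met being left out of all statements of results. Alternatives included DESeq2 1.42.0 and limma-voom (limma 3.58.1). The Met levels are plain CPM, and all other CPM are scaled by TMM factors over the 12 libraries. Standard errors (SE) come from the F statistic as |log2 fold change| / root F, and intervals are 95%. Genes were named from a fixed list, by log2 fold change among those not overlapping (10 each way, mean of 10 CPM or more, no predicted models, called genes first), and by correlation with Met over log2(CPM + 2). Gene lists leave out chromosome 6, which holds 38 of their members, and 3 names were not found in the files. The members and lists were chosen with earlier results of these data known. The procedure was tested on simulated data. Total gene counts were 19695318 to 33600076 per library.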

Additional observations from a re-analysis of the deposited data

Results flagged for a closer look

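Among the 7 other tumours, 88 named genes were examined on the log2 scale for a single tumour far from the rest, by Dixon's ratio at its 95% critical value, which chance exceeds in about 1 in 20 groups. In tumour 1, Plau stood at 1379 CPM (nearest tumour 72.1), Fosl1 at 45.1 CPM (nearest 3.30) and Hspa1a at 29.3 CPM (nearest 8.02), and Sox10 was far below the rest at 1.41 CPM (nearest 97.3). In tumour 27, Cyp3a57 stood at 80.6 CPM, Robo2 at 206 CPM, Tspan8 at 185 CPM, Col23a1 at 119 CPM and Timp3 at 930 CPM. In tumour 21, Il1rl1 stood at 114 CPM (nearest 2.66) and Col3a1 at 17235 CPM (nearest 1912). In tumour 17, Slc38a2 stood at 656 CPM (nearest 334). The negative log2 fold changes of Cyp3a57, Robo2, Tspan8, Il1rl1 and Col23a1 in the Met-high tumours are set against a class that holds these single high tumours.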

How the results depend on the processing

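Off chromosome 6, edgeR called 0 genes higher, against 2 with no filter on low counts, 33 with DESeq2, 1 without robust estimation, 5 with all 12 libraries, 2 with the luminal list level as a covariate and 0 to 3 when 1 tumour was left out (3 without tumour 5, 1 without tumour 24). Genes called lower numbered 0 in every alternative run except DESeq2, which called 51. On chromosome 6 the count of 9 became 17 with no filter, 63 with DESeq2, 30 with all 12 libraries, 16 with a covariate for alignments outside genes, 1 with the luminal covariate, 0 with log2 Met CPM as a continuous term and 0 to 12 when 1 tumour was left out. It was 0 with a Met cut-off of 500 CPM, an alternative chosen after seeing the data. The cause was not tested. DESeq2 gave no adjusted p for 1237 genes. Of the results for 88 named genes, 1991 stayed on the same side of the threshold and 21 passed it only in the alternative. Of 902 recomputed list medians 81 moved by over 1 SD, and outside DESeq2 no list member was called in any alternative. The median of all genes off chromosome 6 was -0.13 with TMM, -0.13 with DESeq2's size factors in edgeR and -0.19 with upper quartile scaling. The exact permutation p of the library measures stayed between 0.286 and 1 over 36 fits without 1 tumour. No paired analysis was possible because the comparison lies within the tumours, whose numbers each name a single sample. With 2 tumours in the Met-high class, leaving out either leaves 1, which is assumed to vary like the others.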

Other observations

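Some genes were high in only 1 of the Met-high tumours. They were chosen after their values were seen. Tex11, a meiosis gene on the X chromosome, had 18.1 CPM in tumour 5, 0.118 CPM in tumour 24 and at most 0.363 CPM in the others, and was called without tumour 24 (edgeR log2 fold change 7.09, adjusted p = 0.027). Lrrc4b, a synaptic adhesion gene, had 9.75 CPM in tumour 24, 0.103 CPM in tumour 5 and at most 0.381 CPM elsewhere. At least 4-fold above every other tumour were 16 genes in tumour 5 and 22 genes in tumour 24, among those at 10 CPM or more and off chromosome 6.

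Skeletal muscle markers summed to 96.2 CPM in tumour 24 and 12.1 CPM in tumour 5 against 11.1 to 51.9 CPM in the other tumours, and none was called. Myh4, a fast muscle myosin gene, had 34.0 CPM in tumour 24, 0.377 CPM in tumour 5 and at most 2.60 CPM elsewhere. The median log2 fold change of the list was 2.12, and -0.943 without tumour 24.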
